A study of Mus musculus with 15 samples.

Results

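The 6 genes described here encode 5 scavenger and uptake receptors and 1 secreted DNase for which sinusoidal endothelium is known, and they were chosen by name as Stab1, Stab2, Mrc1, Lyve1, Fcgr2b and Dnase1l3 among the 44674 genes of the count table. All 6 were found in the table under these symbols. Sinusoids are the thin, leaky capillaries of liver, spleen and bone marrow. Their endothelial cells (ECs) clear the blood of waste molecules by taking them up through large surface receptors, passing them to endosomes and degrading them in lysosomes. The best known of these receptors are the stabilins, the mannose receptor, hyaluronan receptors and an inhibitory Fc receptor for immune complexes. Macrophages carry several of the same receptors, which is why a macrophage share was looked for in each library.

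The levels were measured by bulk RNA-seq in 15 libraries of 8 conditions. Bone marrow ECs (BMECs) were labelled with tdTomato through a tamoxifen-induced Tie2-CreERT2 and Rosa26-tdTomato in mice of 4 to 6 months. The Tie2 promoter is an endothelial driver that can also be active in some blood cells. Whole bone marrow was cultured in EGM-2 medium for about 2 weeks as passage 0 (P0), and CD45- tdTomato+ cells were sorted into cells with and without endomucin (Emcn), a surface sialomucin of ECs. P0 Emcn+ cells, P0 Emcn- cells, ECs of lung cultures and bone marrow mesenchymal stromal cells (BM MSC) had 2 libraries each. The BM MSC came from Osx-Cre and Rosa26-tdTomato mice, grown in another medium and sorted as CD45- tdTomato+ cells. Emcn- cells passaged further had 2 libraries each at P1, P2 and P3 and 1 library at P4. That the lung cells were also Emcn- is stated in the study's text, while the labels give only lung. The labels list WT as the genotype of all samples, and the methods describe mostly 1 mouse per culture dish.

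Total counts ran from 9914620 to 39718807 per library, so 3 counts, the limit that a count of 0 allows, were worth 0.0755 to 0.303 CPM, the count scaled to the library's total. The labels name 4 batches. The P0 and lung libraries of replicate 1 were of 1 batch and those of replicate 2 of another, and the passaged and BM MSC libraries were of 2 further batches, so that a difference between these blocks and a batch effect cannot be told apart. The labelled cell type was checked with marker genes. The 12 endothelial markers were Cldn5, Tie1, Kdr, Robo4, Esam, Cdh5, Egfl7, Emcn, Pecam1, Tek, Erg and Flt1, with Emcn itself used in the sort. Their summed level was 13421 and 11408 CPM in P0 Emcn+ cells. It was 45.0 to 718 CPM in all other libraries, the libraries labelled BMEC among them. The summed level of 9 mesenchymal markers was 246 and 331 CPM in P0 Emcn+ cells and 5097 to 23211 CPM in every other library. The libraries labelled as Emcn- BMECs and lung ECs therefore carried little RNA of the endothelial markers, and the labels are kept here only as names. By staining, the study reports VE-cadherin and CD31 protein in both network-forming and colony-forming P0 cells, of which only the former had Emcn. In these bulk samples, fewer cells of a type and less RNA per cell cannot be told apart.

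All 6 genes had their highest level in P0 Emcn+ cells. For none of them did the 2 P0 Emcn+ libraries overlap with any of the other 13. The share of all genes separated in this way is not given here, so the separation is not read as particular to the 6. The lower P0 Emcn+ library exceeded the highest other library by 63.3-fold for Stab2 and 60.4-fold for Dnase1l3, by 10.4-fold for Stab1, 5.99-fold for Lyve1, 5.78-fold for Mrc1 and 5.61-fold for Fcgr2b. The highest other library was a lung library for Stab1 and Lyve1 and a P0 Emcn- library for the remaining 4 genes. Of the CPM summed over all 15 libraries, the P0 Emcn+ libraries held 98.0% for Stab2, 97.0% for Dnase1l3, 90.6% for Stab1, 89.1% for Lyve1, 84.6% for Mrc1 and 76.3% for Fcgr2b. All 6 genes differed over the 8 conditions by edgeR's quasi-likelihood F-test, as did 63.5% of the 19401 genes tested. All 6 passed the filter on low counts, although Dnase1l3 exceeded its limit of 0.304 CPM in only 5 of 15 libraries, both P0 Emcn+ libraries among them, and Lyve1 in 13.

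**Figure D1:**
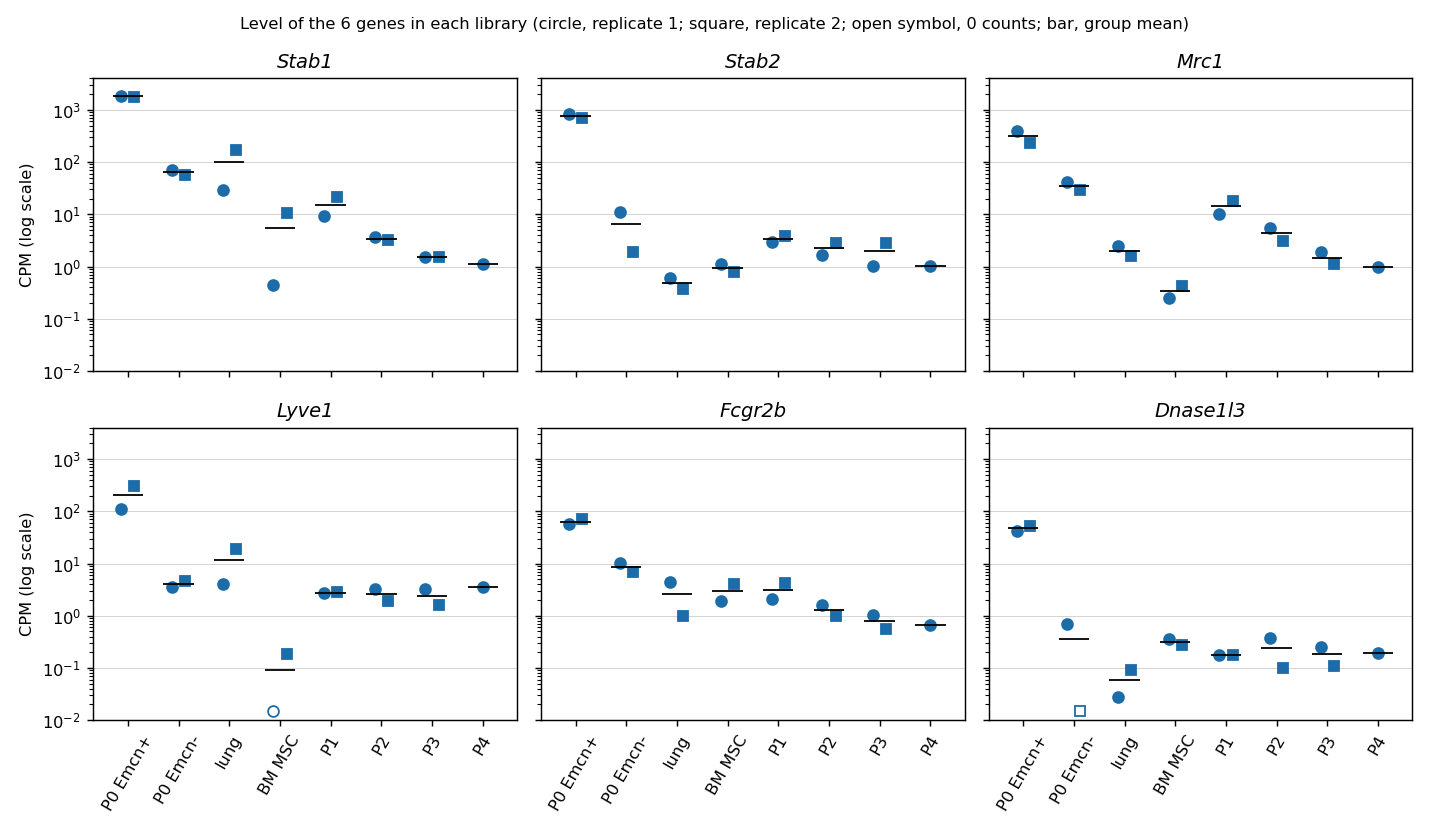
Level of the 6 genes in each library in CPM on a log axis, by condition. Circles are replicate 1, squares replicate 2, open symbols libraries with 0 counts (drawn at the foot of the axis) and bars the group means. Both P0 Emcn+ libraries lie above all other libraries for each gene, and the condition with the next highest mean is lung for Stab1 and Lyve1 and P0 Emcn- for the remaining 4 genes.

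P0 Emcn+ cells were compared with P0 Emcn- cells to ask how far the receptors went with the Emcn+ fraction of P0 cultures. All 6 genes were called higher in P0 Emcn+ cells, against a background of 7.79% of genes called higher (19.2% called in either direction). Genes count as called where the adjusted p was under 0.05 and the log2 fold change exceeded 1.5 in size. The median log2 fold change of the 6 genes was 5.28, and that of all genes tested was -0.06. The fitted folds covered a wide range, from 2.91 for Fcgr2b to 6.82 for Stab2 on the log2 scale.

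The start regions of 4 of the 6 genes were found in the RefSeq promoter table of GRCm38.p6 and are shown because all 6 genes had their highest level in the same libraries. They were searched on both strands for the letters GGAA, the core recognised by ETS factors, the family of the endothelial regulator ERG and the macrophage regulator PU.1. The longer word GAGGAA, which contains GGAA, is part of the sequence preferred by PU.1. Printed 5′ to 3′ on the strand of the gene is the part of each window that lies before the start and outside annotated exons, with GGAA and its complement TTCC in capitals. The regions are chr14:31168642-31168891 (minus strand) for Stab1, chr10:87008026-87008192 (minus strand) for Stab2, chr2:14229164-14229391 (plus strand) for Mrc1 and chr1:170976128-170976174 (minus strand) for Fcgr2b. The Fcgr2b region lies inside the gene span given below, so its start in the promoter table is not the outermost annotated start. The printed parts of Stab2 and Mrc1 end 84 and 23 bases before the start in the promoter table, so those starts are not the outermost either.
Stab1: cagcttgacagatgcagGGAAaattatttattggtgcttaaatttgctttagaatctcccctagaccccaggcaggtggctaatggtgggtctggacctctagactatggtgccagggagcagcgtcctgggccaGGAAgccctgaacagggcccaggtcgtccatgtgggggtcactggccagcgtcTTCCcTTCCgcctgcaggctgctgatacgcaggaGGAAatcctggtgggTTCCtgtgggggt
Stab2: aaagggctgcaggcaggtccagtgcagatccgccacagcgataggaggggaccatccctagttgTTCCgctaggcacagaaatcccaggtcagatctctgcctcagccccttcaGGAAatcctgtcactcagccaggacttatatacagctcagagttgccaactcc
Mrc1: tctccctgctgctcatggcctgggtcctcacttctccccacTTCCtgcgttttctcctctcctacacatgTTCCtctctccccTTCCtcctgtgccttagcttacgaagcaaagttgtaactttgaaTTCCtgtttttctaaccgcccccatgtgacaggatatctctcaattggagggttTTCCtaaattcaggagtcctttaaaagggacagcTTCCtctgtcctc
Fcgr2b: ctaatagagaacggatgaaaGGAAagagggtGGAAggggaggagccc

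The 250 bases before the start held 6 matches to GGAA in Stab1, Stab2 and Mrc1 and 4 in Fcgr2b. The printed parts held only 2 of them in Stab2 and 2 in Fcgr2b. Of 32851 windows of 250 bases, 93.4% held at least 1 match, 33.4% held at least 4 and 8.69% held at least 6. The word GAGGAA occurred 3 times in Mrc1, each as its complement TTCCTC, and 1 time in Stab1, and it was not found in the windows of Stab2 and Fcgr2b. At least 1 GAGGAA occurred in 23.3% of all windows and at least 3 in 0.429%. The GATA word AGATAA, the TATA word TATAAA and the E-box CACGTG were in none of the 4 windows and in 9.99%, 12.4% and 6.02% of all windows. A match describes the letters and shows no binding.

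Stab1 encodes stabilin 1, a scavenger receptor of sinusoidal ECs and some macrophages that takes up modified lipoproteins and matrix fragments. The gene (ENSMUSG00000042286) lies at chr14:31139013-31168641 on the minus strand of GRCm38, and 112 of its exonic bases overlap Nt5dc2 on the other strand. Nt5dc2 had a higher mean in P0 Emcn- cells (47.2 CPM) than in P0 Emcn+ cells, the opposite order to Stab1. Stab1 was the most abundant of the 6 genes, at 1883 and 1768 CPM in the 2 P0 Emcn+ libraries. It was at 70.8 and 56.6 CPM in P0 Emcn- cells and at 28.9 and 170 CPM in lung cells. The lung libraries lay on either side of the P0 Emcn- libraries, so these groups overlapped.

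In BM MSC, Stab1 was at 0.449 and 10.7 CPM, a larger ratio between replicates than in any other condition. The passaged cells had 9.31 and 21.2 CPM at P1, 3.65 and 3.18 CPM at P2, 1.55 CPM in both libraries at P3 and 1.13 CPM at P4. The passaged conditions thus stood in the order of their passage, with no overlap between neighbouring passages. The log2 fold change of P0 Emcn+ over P0 Emcn- cells was 4.87 ± 1.15 (SE, n = 2 and 2, adjusted p = 0.00809). Within batches the P0 Emcn+ library was 26.6-fold and 31.2-fold higher. Without replicate 2 of P0 Emcn- the log2 fold change was 4.72 with an adjusted p of 0.0563, so the call was lost.

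Stab2 encodes stabilin 2, the principal clearance receptor for hyaluronan and for many other ligands in liver, spleen and marrow sinusoids. The gene (ENSMUSG00000035459) lies at chr10:86841198-87008025 on the minus strand. Stab2 was at 845 and 702 CPM in P0 Emcn+ cells and at 11.1 and 1.92 CPM in P0 Emcn- cells. The P0 Emcn- values rest on 440 counts in replicate 1 and 19 in replicate 2. The summed endothelial markers in the same libraries were 359 and 79.4 CPM, so that Stab2 in replicate 2 was 0.173 of its level in replicate 1 and the markers were 0.221 of theirs.

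Stab2 was at 0.607 and 0.369 CPM in lung cells and at 1.09 and 0.791 CPM in BM MSC. It was at 2.92 and 3.77 CPM at P1, 1.66 and 2.88 CPM at P2, 1.04 and 2.85 CPM at P3 and 1.02 CPM at P4. The order of the means was the same as the order of the passages, but P2 and P3 overlapped, and P0 Emcn- and P1 also overlapped. P0 Emcn+ cells exceeded P0 Emcn- cells by a log2 fold change of 6.82 ± 0.73 (SE, n = 2 and 2, adjusted p = 7.67e-05). It was 8.71 without replicate 1 of P0 Emcn- and 6.16 without replicate 2, and the within-batch folds were 76.3 and 366. The gene stayed called under both omissions.

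Mrc1 encodes the mannose receptor (CD206), a C-type lectin that takes up glycoproteins with terminal mannose and collagen fragments, in sinusoidal and lymphatic ECs and in many tissue macrophages. The gene (ENSMUSG00000026712) lies at chr2:14229392-14332057 on the plus strand. Mrc1 was at 396 and 237 CPM in P0 Emcn+ cells and at 40.9 and 29.0 CPM in P0 Emcn- cells. It was at 2.43 and 1.57 CPM in lung cells and 0.253 and 0.426 CPM in BM MSC, the lowest condition. The passaged cells had 10.4 and 17.9 CPM at P1, 5.57 and 3.02 CPM at P2, 1.86 and 1.11 CPM at P3 and 0.962 CPM at P4. From P0 Emcn- through P4 no neighbouring passages overlapped. The log2 fold change of P0 Emcn+ over P0 Emcn- cells was 3.21 ± 0.43 (SE, n = 2 and 2, adjusted p = 0.000302), with within-batch folds of 9.68 and 8.14.

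Lyve1 encodes a hyaluronan receptor of lymphatic vessels, liver and marrow sinusoids and some tissue macrophages. The gene (ENSMUSG00000030787) lies at chr7:110850607-110863239 on the minus strand. Lyve1 was at 113 and 299 CPM in the P0 Emcn+ libraries, the largest ratio between P0 Emcn+ replicates among the 6 genes. It was at 3.63 and 4.64 CPM in P0 Emcn- cells and at 4.09 and 18.9 CPM in lung cells. In BM MSC it had 0 counts in replicate 1 and 0.183 CPM in replicate 2. From P1 to P4 Lyve1 stayed between 1.59 and 3.57 CPM, and the single P4 library was the highest of them. Over P0 Emcn- cells the log2 fold change was 5.69 ± 0.85 (SE, n = 2 and 2, adjusted p = 0.000597). It was 4.84 without replicate 2 of P0 Emcn+ (adjusted p = 0.00356), and the within-batch folds were 31.1 and 64.5.

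Fcgr2b encodes the inhibitory Fc gamma receptor IIb, which clears small immune complexes in liver sinusoids and restrains B cells and myeloid cells. The gene (ENSMUSG00000026656) lies at chr1:170958617-170976547 on the minus strand. Of its 5609 transcript words of 31 bases, 324 (5.78%) also occur in other genes, 233 of them in Fcgr3, so part of its reads may have been shared with that activating Fc receptor. Fcgr2b was at 56.9 and 70.3 CPM in P0 Emcn+ cells, 10.1 and 6.96 CPM in P0 Emcn- cells, 4.36 and 0.968 CPM in lung cells and 1.91 and 3.99 CPM in BM MSC. It was at 2.08 and 4.23 CPM at P1, 1.60 and 0.994 CPM at P2, 1.04 and 0.555 CPM at P3 and 0.660 CPM at P4. Lung, BM MSC and P1 overlapped in all their pairs. Between the P0 fractions the log2 fold change was 2.91 ± 0.64 (SE, n = 2 and 2, adjusted p = 0.00571), the smallest of the 6, with within-batch folds of 5.61 and 10.1.

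Dnase1l3 is the member that is no receptor: it encodes a secreted DNase that digests DNA in chromatin and in vesicles shed by dying cells. The gene (ENSMUSG00000025279) lies at chr14:7964533-7994573 on the minus strand. Dnase1l3 was at 42.6 and 51.2 CPM in P0 Emcn+ cells, from 1344 and 1326 counts. In P0 Emcn- cells it had 28 counts (0.705 CPM) in replicate 1 and 0 counts in replicate 2, where a count of 0 allows up to 0.303 CPM. It was at 0.0276 to 0.379 CPM in all 11 remaining libraries, close to or below the level of 3 counts in several of them. The fitted log2 fold change of P0 Emcn+ over P0 Emcn- cells was 6.65 ± 0.79 (SE, n = 2 and 2, adjusted p = 0.000142). Without replicate 1 of P0 Emcn-, which leaves a lone library with 0 counts, the fitted value rose far above this and is no bound. Within batches the fold was 60.4 (95% counting interval 41.6 to 91.3) for replicate 1. For replicate 2, with 0 counts in P0 Emcn-, it was 169 taken against 3 counts, with a lower 95% counting limit of 137.5.

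Levels of the 6 genes were also compared per kilobase (kb) of exonic length, since longer transcripts give more counts. In P0 Emcn+ cells the mean was 177 CPM per kb for Stab1, 88.3 for Stab2, 70.6 for Lyve1, 49.6 for Mrc1, 11.0 for Fcgr2b and 9.11 for Dnase1l3. In P0 Emcn- cells it was 6.19 CPM per kb for Stab1 and 5.49 for Mrc1, then 1.48 for Fcgr2b, 1.42 for Lyve1, 0.742 for Stab2 and 0.0684 for Dnase1l3. Lyve1 changed places between the 2 libraries of a group: it was below Stab2 and Mrc1 in replicate 1 of P0 Emcn+ (38.7 against 96.5 and 62.1 CPM per kb) and above both in replicate 2 (102 against 80.1 and 37.1). In P0 Emcn- cells its order with Stab2 and with Fcgr2b reversed in the same way, while the order of the other genes was the same in both libraries of each fraction. Between the stabilins, Stab1 exceeded Stab2 per kb by 1.90-fold and 2.14-fold in P0 Emcn+ cells, by 5.44-fold and 25.1-fold in P0 Emcn- cells and by 40.5-fold and 392-fold in lung cells.

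A macrophage share was examined for Mrc1 and Fcgr2b, which both macrophages and sinusoidal ECs can express. The sort removed CD45+ cells, yet the 8 defining macrophage markers (Ptprc, Csf1r, Adgre1, Spi1, Tyrobp, C1qa, C1qb and C1qc) were detected in the P0 libraries. Their summed level was 216 and 204 CPM in P0 Emcn+ cells and 94.5 and 120 CPM in P0 Emcn- cells. It was 6.52 and 5.63 CPM in lung cells and 1.57 and 2.25 CPM in BM MSC, where 5 and 3 of the 8 markers were at 0. It was 20.1 and 59.3 CPM at P1, 9.22 and 10.1 CPM at P2, 3.10 and 2.18 CPM at P3 and 1.04 CPM at P4. The summed level was therefore highest in the same 2 libraries as the 6 genes, and its ratio of means between P0 Emcn+ and P0 Emcn- cells was 1.96.

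That ratio was 9.04 for Mrc1 and 7.44 for Fcgr2b, 28.7 for Stab1, 49.8 for Lyve1, 119 for Stab2, 133 for Dnase1l3 and 56.6 for the summed endothelial markers. None of the 8 defining macrophage markers was called between P0 Emcn+ and P0 Emcn- cells by edgeR, with 3 at an unadjusted p under 0.05 and a median log2 fold change of 1.00. In the longer list of 18 macrophage genes, 4 of 17 tested were called higher, against 7.79% of all genes: Cd14, Fcer1g, Laptm5 and Cd68, at log2 fold changes of 4.02, 2.72, 2.22 and 1.78. Per 100 CPM of the defining markers, Mrc1 was at 183 and 116 CPM in P0 Emcn+ cells and at 43.3 and 24.3 CPM in P0 Emcn- cells. Mrc1 relative to these markers was thus 4.24-fold and 4.77-fold higher in P0 Emcn+ cells within the batches. Fcgr2b was at 26.4 and 34.4 CPM per 100 CPM of the markers in P0 Emcn+ cells and at 10.7 and 5.82 in P0 Emcn- cells, which was 2.46-fold and 5.91-fold higher within the batches.

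Outside P0 Emcn+ cells, Mrc1 was at 16.1 and 18.9 CPM per 100 CPM of the defining markers in BM MSC and at 24.3 to 92.1 CPM in the remaining 11 libraries, while Mrc1 itself ran from 0.253 to 40.9 CPM. The ratio thus varied less over these libraries than the level of Mrc1 did. In BM MSC, where the markers summed to 1.57 and 2.25 CPM, Fcgr2b was at 121 and 177 CPM per 100 CPM of the markers, above every other library. In the remaining 11 libraries it ran from 5.82 to 66.9. Lung replicate 1 (66.9) and P4 (63.2) lay above both P0 Emcn+ libraries. What part of Mrc1 and Fcgr2b in each library came from macrophages was not tested. Fcgr2b is also a gene of B cells, which are CD45+ and outside the sort gate, and the 6 B-cell markers summed to 0.254 to 3.90 CPM over the 15 libraries.

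**Figure D2:**
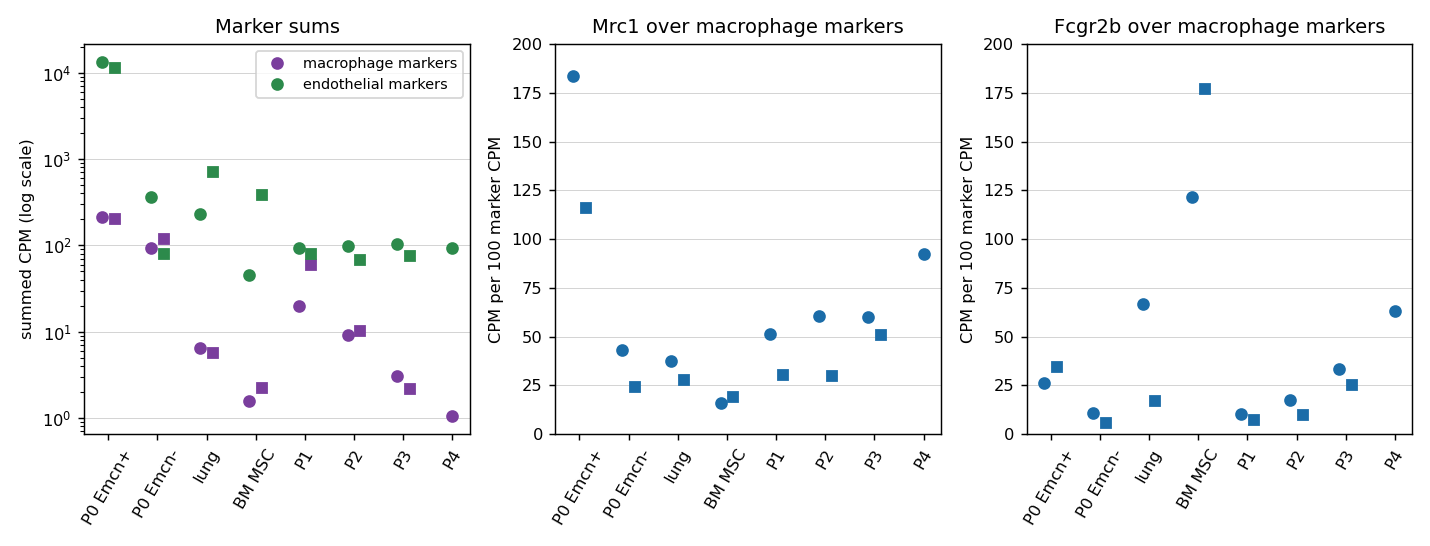
Left, summed CPM of 8 defining macrophage markers and 12 endothelial markers in each library, on a log axis. Middle and right, CPM of Mrc1 and Fcgr2b per 100 CPM of the macrophage markers, with circles for replicate 1 and squares for replicate 2. Mrc1 stands at 183 and 116 in P0 Emcn+ cells against at most 92.1 elsewhere, while Fcgr2b is highest in BM MSC at 121 and 177.

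P0 Emcn+ cells were next compared with lung ECs and BM MSC, which share the P0 Emcn+ libraries. Against lung cells all 6 genes were called higher, where 8.48% of all genes were (21.1% in either direction). The log2 fold change was 10.5 for Stab2 (adjusted p = 1.75e-05), 9.64 for Dnase1l3 (5.05e-05), 7.24 for Mrc1 (7.77e-06), 4.50 for Fcgr2b (0.000652), 4.18 for Stab1 (0.0136) and 4.15 for Lyve1 (0.00213). Dnase1l3 had 1 and 2 counts in the lung libraries, and its within-batch folds were 1542 (95% counting interval 276 to 60967) and 556 (154 to 4594). For Stab1 the log2 fold change was 3.43 without replicate 1 of the lung cells, with an adjusted p of 0.0782, and 5.94 without replicate 2. The 3 genes with the smallest folds were also those with the widest gap between the lung libraries among the genes with over 10 counts there: Stab1, Lyve1 and Fcgr2b differed 5.87-fold, 4.61-fold and, in the other direction, 0.222-fold between replicates 2 and 1.

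Without a lung replicate the log2 fold change against lung cells ran from 3.45 to 5.61 for Lyve1, from 3.82 to 6.03 for Fcgr2b and from 8.92 to 10.5 for Dnase1l3, all still called. For Lyve1 it was 3.30 without replicate 2 of P0 Emcn+. Against BM MSC all 6 genes were again called higher, against a background of 11.3% of genes (31.3% in either direction). All 8 defining macrophage markers were called higher in P0 Emcn+ cells as well, with a median log2 fold change of 5.12 against lung cells and 9.43 against BM MSC, and their part in these results was not tested. The log2 fold changes of the 6 genes against BM MSC were 11.1 for Lyve1, 9.80 for Mrc1, 9.61 for Stab2, 8.33 for Stab1, 7.11 for Dnase1l3 and 4.38 for Fcgr2b. These libraries were of different batches, so the cell type and the batch cannot be told apart. The Lyve1 value rests on 0 and 0.183 CPM in BM MSC and was 10.1 without replicate 1 and 15.5 without replicate 2 of BM MSC, and 10.2 without replicate 2 of P0 Emcn+. For Stab1 it was 7.39 without replicate 1 and 11.9 without replicate 2 of BM MSC, and for Fcgr2b 4.99 without replicate 2.

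Among the conditions with low endothelial markers, the 6 genes did not share 1 order. Lung cells had lower Mrc1 and Stab2 than P0 Emcn- cells, and these 2 of 6 genes were called (1.70% of all genes were called lower and 3.83% either way). Mrc1 was at a log2 fold change of -4.04 (adjusted p = 0.00187) and Stab2 at -3.71 (adjusted p = 0.0205). The Mrc1 ratio of lung to P0 Emcn- cells was 0.0594 and 0.0540 within the batches, and the defining macrophage markers were all called lower in lung cells as well, with a median log2 fold change of -4.05. The Stab2 call was lost without replicate 1 of P0 Emcn- (-1.83, adjusted p = 0.205), without lung replicate 1 (-4.19, 0.110) and without lung replicate 2 (-3.44, 0.104), and the value was -4.38 without replicate 2 of P0 Emcn-.

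The other 4 genes were not called between lung and P0 Emcn- cells. The log2 fold change was 0.69 for Stab1 (95% interval -1.5 to 2.88) and 1.54 for Lyve1 (-0.12 to 3.20). For both, the batches disagreed or differed in size: lung over P0 Emcn- was 0.409 and 3.00 for Stab1 and 1.13 and 4.06 for Lyve1. In lung replicate 2, the library with more Stab1 and Lyve1, the summed endothelial markers were also 3.08-fold those of replicate 1, while the macrophage markers were 0.863 of theirs; the part of either in these levels was not tested. Fcgr2b (-1.58, 95% interval -2.99 to -0.18) and Dnase1l3 (-2.99, -5.36 to -0.61) missed the threshold after adjustment, at adjusted p of 0.215 and 0.162. Without replicate 2 of P0 Emcn-, Dnase1l3 was at -3.59. Without replicate 1 of P0 Emcn-, which leaves a lone library with 0 counts, its value turned positive, so the direction rests on that library.

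BM MSC had lower levels than P0 Emcn- cells for 4 of 6 genes, where 7.45% of all genes were called lower and 18.7% either way. All 8 defining macrophage markers were lower too, with a median log2 fold change of -8.21, and their part was not tested. In log2 fold change, the difference was -6.60 for Mrc1, -5.37 for Lyve1, -3.46 for Stab1 (adjusted p = 0.0326) and -2.79 for Stab2 (adjusted p = 0.0110). Fcgr2b at -1.47 (95% interval -2.87 to -0.07) and Dnase1l3 at -0.46 (-2.20 to 1.29) were not called. The Dnase1l3 value turned positive without replicate 1 of P0 Emcn- and with the replicate block. The Stab1 call was lost without replicate 1 of P0 Emcn- (-3.29, adjusted p = 0.0794), replicate 2 of P0 Emcn- (-3.64, 0.0516) or replicate 1 of BM MSC (-2.52, 0.0713), and the value was -7.03 without replicate 2 of BM MSC. The Stab2 call was lost without replicate 1 of P0 Emcn- (-0.92, 0.329) or replicate 2 of BM MSC (-2.57, 0.0675), and the value was -3.48 without replicate 2 of P0 Emcn-. Lyve1 stayed called at -4.38 without replicate 1 and -9.83 without replicate 2 of BM MSC.

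Between the BM MSC replicates, Stab1 differed 23.7-fold and the summed endothelial markers 8.61-fold in the same direction, and whether the endothelial share set the Stab1 level was not tested. Against the mean of P1 to P3, BM MSC had lower Lyve1 (-4.92, adjusted p = 0.00549) and Mrc1 (-3.82, adjusted p = 0.000427), 2 of 6 genes where 5.81% of all genes were called lower and 14.2% either way. Without replicate 1 of BM MSC, Lyve1 was at -3.92 with an adjusted p of 0.0521, and without replicate 2 at -9.37. Stab2 (-1.45, 95% interval -2.79 to -0.10), Stab1 (0.24, -1.63 to 2.10), Fcgr2b (0.87, -0.25 to 1.99) and Dnase1l3 (0.56, -0.93 to 2.05) were not called. The Stab1 value turned negative without replicate 2 of BM MSC. With the replicate block Stab2 was called as well, at -1.79 (adjusted p = 0.0225). The terms of this block follow the labelled batches. Both BM MSC libraries share a batch with replicate 2 of the passaged cells, so the batch difference it removes is estimated from the passaged cells alone.

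The passages were compared to see how the 6 genes changed in continued culture of Emcn- cells. None of the 6 genes was called between P1 and P0 Emcn- cells, while 8.84% of all genes were (3.07% of all genes were called lower at P1). All 6 fold changes were negative, from -1.92 for Stab1 (95% interval -4.19 to 0.35) to -0.40 for Lyve1 (-2.10 to 1.29). Mrc1 was at -1.17 (-2.07 to -0.26, adjusted p = 0.0728), the only 1 of the 6 at an unadjusted p under 0.05, and DESeq2 called none. Without replicate 2 of P0 Emcn-, Stab2 was called at -1.60 (adjusted p = 0.0332). Without replicate 1 of P0 Emcn-, by contrast, the values of Stab2 and Dnase1l3 turned positive, so their direction rests on that library. P0 and P1 were of different batches, so passage and batch cannot be told apart here.

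P1 and P3 had a library each in both of their labelled batches. Mrc1 was called lower at P3, at a log2 fold change of -3.18 ± 0.46 (SE, n = 2 and 2, adjusted p = 0.0304), and was the only 1 of the 6 genes called, where 0.144% of all genes were called lower and 0.222% either way. Its P3 level was 0.180 and 0.0622 of that at P1 within the batches. Adjusted p was between 0.0508 and 0.0625 without either P0 Emcn+ library or either P2 library, and 0.189, 0.279 and 0.146 without P1 replicate 2, P3 replicate 1 and P3 replicate 2, with log2 fold changes of -3.65 to -2.76 over these 7 omissions. The direction was the same under each omission.

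Stab1 (-3.25, 95% interval -5.77 to -0.72, adjusted p = 0.250) and Fcgr2b (-1.90, -3.42 to -0.39, adjusted p = 0.263) were lower at P3 in both batches and were not called. P3 was at 0.167 and 0.0733 of P1 for Stab1 and at 0.501 and 0.131 for Fcgr2b. Stab2 was at -0.77 (-2.22 to 0.67), Lyve1 at -0.12 (-1.79 to 1.56) and Dnase1l3 at 0.11 (-1.97 to 2.20). Of the 17 macrophage genes tested, 7 were called lower at P3 than at P1, 4 of the 8 defining markers among them (Adgre1, C1qa, C1qb and C1qc). All 7 calls were lost without P1 replicate 2, P3 replicate 1 or P3 replicate 2, when 0 of all genes were called lower, and at most 1 was kept without a P2 library, when 1 gene was.

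From P0 Emcn- to P3 the ratio of means was 41.0 for Stab1, 23.5 for Mrc1 and 10.7 for Fcgr2b, and 40.5 for the 8 defining macrophage markers and 18.5 for the longer macrophage list, each summed. It was 3.34 for Stab2 and 1.70 for Lyve1, and 2.46 for the summed endothelial markers. At P1, replicate 2 was above replicate 1 by 2.95-fold for the macrophage markers, 2.28-fold for Stab1, 2.03-fold for Fcgr2b and 1.73-fold for Mrc1, and by 1.29-fold for Stab2 and 1.06-fold for Lyve1, while the endothelial markers were 0.851-fold. At P2, replicate 2 over replicate 1 was 1.10 for the macrophage markers and 0.872 for Stab1, 0.620 for Fcgr2b and 0.541 for Mrc1. At P3 it was 0.704 for the markers and 1.00 for Stab1, 0.596 for Mrc1 and 0.532 for Fcgr2b. In P0 Emcn- cells it was 1.27 for the markers and 0.800 for Stab1, 0.710 for Mrc1 and 0.686 for Fcgr2b. The replicate ratios of Mrc1 and Fcgr2b thus lay on the same side of 1 as the markers at P1 and P3 and on the other side at P0 and P2, and the part of macrophage RNA in these levels was not tested.

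**Figure D3:**
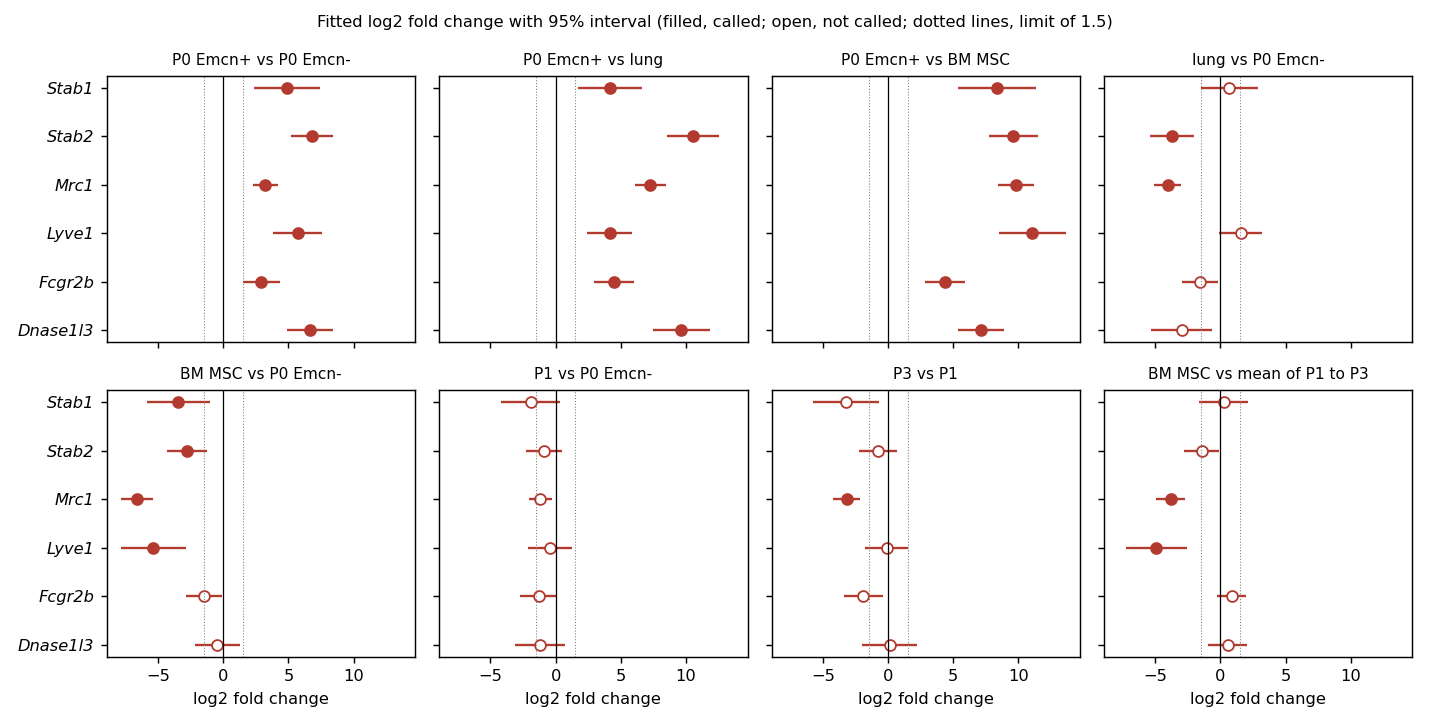
Fitted log2 fold change of each gene in 8 comparisons, with 95% intervals. Filled points are called, open points not called, and the dotted lines mark the limit of 1.5 in each direction. All 6 genes are called in the 3 comparisons of P0 Emcn+ cells, and Mrc1 is the only gene called in all 4 comparisons of lung against P0 Emcn-, BM MSC against P0 Emcn-, P3 against P1 and BM MSC against P1 to P3.

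The relatives of the 6 genes were examined from lists of uptake genes, each to be read against the 7.79% of all genes called higher and 11.4% called lower in P0 Emcn+ than in P0 Emcn- cells. The other scavenger receptors did not follow 1 direction between P0 Emcn+ and P0 Emcn- cells. Of 16 tested, 3 were called higher, 4 lower and 9 not, with a median log2 fold change of 0.23. The EC scavenger receptor Scarf1 was higher by 5.71, at 130 and 137 CPM in P0 Emcn+ against 3.60 and 1.21 CPM in P0 Emcn- cells. The lipoprotein receptor Scarb1, which binds HDL, was higher by 3.47 and the lysosomal protein gene Cd68 by 1.78. Lrp1, a large endocytic receptor of many stromal cells, was at 172 and 186 CPM in P0 Emcn+ cells against 7073 and 5489 CPM in P0 Emcn- cells (-5.10). Scarf2 (-4.70), Colec12 (-2.30) and the lipoprotein receptor Vldlr (-1.96) were also lower.

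Mrc2 and Cd44, a relative each of Mrc1 and Lyve1, were called lower in P0 Emcn+ cells. Mrc2 (Endo180), the mannose receptor relative that takes up collagen in mesenchymal cells, was at 10.7 and 13.1 CPM in P0 Emcn+ cells against 651 and 467 CPM in P0 Emcn- cells, a log2 fold change of -5.52. Per kb, Mrc1 exceeded Mrc2 by 38.8-fold and 18.9-fold in P0 Emcn+ cells, while Mrc2 exceeded Mrc1 by 15.2-fold and 15.3-fold in P0 Emcn- cells and by 242-fold and 373-fold in lung cells. The broadly expressed hyaluronan receptor Cd44, which shares its link domain with Lyve1, was at 11.7 and 31.4 CPM in P0 Emcn+ cells against 220 and 107 CPM in P0 Emcn- cells (-2.90). Lyve1 exceeded Cd44 per kb by 22.4-fold and 22.1-fold in P0 Emcn+ cells, and Cd44 exceeded Lyve1 by 26.1-fold and 9.90-fold in P0 Emcn- cells. Fcgr3, the activating relative of Fcgr2b, was at 24.0 and 17.4 CPM in P0 Emcn+ cells against 10.1 and 9.78 CPM in P0 Emcn- cells, with a log2 fold change of 1.09 that was not called (adjusted p = 0.0820). Per kb, Fcgr2b was 0.712 and 1.21 of Fcgr3 in P0 Emcn+ and 0.302 and 0.213 of it in P0 Emcn- cells.

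Of the 10 lectin receptors listed, 6 were tested. Ly75 (DEC-205, a relative of the mannose receptor) was higher by 2.93 and Clec14a, an EC surface protein, by 2.72, while Mrc2 and Clec2d were lower and 2 were not called. Clec4g, a lectin of liver sinusoids, was at 0 counts in both P0 Emcn+ libraries. Of 9 hyaluronan genes tested, Cemip2 (2.99) and Hyal2 (1.82), which take part in breaking hyaluronan down, were higher. The synthases Has2 (-7.42) and Has1 (-4.82), the hyaluronan-degrading Cemip (-3.58) and Cd44 were lower and 3 were not called. The third synthase, Has3, was at 0.29 and the hyaluronidase Hyal1 at 0.63, neither of them called.

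Among 5 other Fc receptor genes, only the signalling chain Fcer1g was called higher (2.72), and Fcgrt, the neonatal Fc receptor that recycles IgG, was at -0.01. None of 4 other DNase genes tested was called between the P0 fractions by edgeR. These included Dnase1l1 (0.62), the lysosomal Dnase2a (-0.66, adjusted p = 0.0435, within the fold limit) and Trex1 (-0.99), and 2 of the 4 had an unadjusted p under 0.05. Of 12 genes of the endocytic machinery and lysosome, the endosomal Ehd4 (3.52) and Ehd3 (1.66) were called higher and the remaining 10 were not called. Clathrin heavy chain Cltc was at 1.02 and the lysosomal proteases Ctsb and Ctsl at 1.00 and 0.72.

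**Figure D4:**
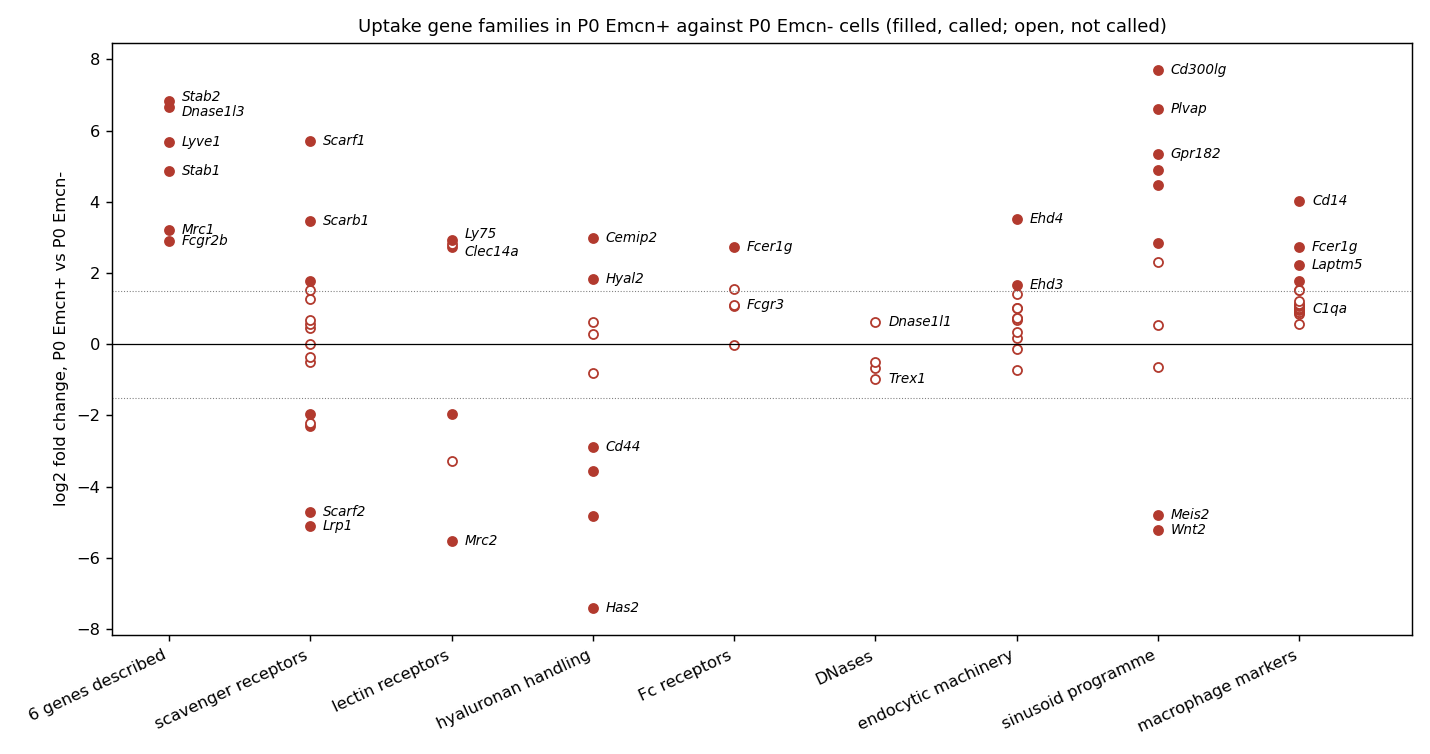
Log2 fold change of P0 Emcn+ over P0 Emcn- cells for the 6 genes and for the tested genes of 8 lists, filled where called and open where not, with dotted lines at the limit of 1.5. The 6 genes all lie above 2.90, while scavenger, lectin and hyaluronan genes lie on both sides of 0, from Scarf1 at 5.71 to Has2 at -7.42.

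Genes with the most similar pattern were sought by Pearson's r of log2(CPM + 1) over the 15 libraries, among 11398 genes with a mean of at least 5 CPM. The libraries fall into P0 Emcn+ and the rest, so a high r largely restates that split. The nearest genes were Prex1 (0.984), Pacc1 (0.983) and Adgrg3 (0.978) for Stab2, Tmem132e (0.993) and Nr5a2 (0.986) for Dnase1l3, and Ankrd11 (0.967), Edn1 (0.960) and Adcy4 (0.958) for Stab1. They were Knop1, Pxn (both 0.962) and Pla2g6 (0.961) for Lyve1. For Mrc1 they were Cd68 (0.988), Ms4a6b (0.987) and Ms4a6d (0.985), and for Fcgr2b Fcer1g (0.975), Lcp1 (0.974) and Ppp2r5a (0.962). Cd68 and Fcer1g are on the macrophage list used above. By Spearman's rho, Ms4a6d remained among the nearest 3 for Mrc1 and Fcer1g for Fcgr2b, and none of those named did for the other 4 genes.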

How the data were processed

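Bulk RNA-seq counts of 15 mouse libraries in 8 conditions were analysed. Groups, replicate numbers and batches were taken from the labels. The authors mapped reads to GRCm38 with STAR, estimated transcript abundance with Salmon in the nf-core pipeline and deposited whole-number counts per gene, without normalization. How the estimates were rounded, and whether counting used strand, are not given in the sources used here. The table holds 44674 genes, of which 8 have a blank symbol and 44118 have an identifier in GENCODE M21, the source of coordinates and exonic lengths.

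CPM was computed from total counts. Genes were tested in R 4.3.3 with edgeR 4.0.16 (TMM, filterByExpr, minimum count 10 and minimum total 15, quasi-likelihood test) over all 15 libraries, leaving 19401 genes and 7 residual degrees of freedom, with calls at an adjusted p (Benjamini-Hochberg) under 0.05 where the log2 fold change exceeded 1.5 in size. P-values without another name are from this test. The comparisons share groups, so their values are not independent. Counting intervals are exact at 95%, and these and the limits for 0 counts cover counting error only. The SE of a fitted log2 fold change was derived from its value and its F statistic. The 95% intervals of fitted values therefore include the spread between replicates. Alternatives were leaving out each library, DESeq2 1.42.0 (also with ashr 2.2.63), other scaling (RLE), omitting the filter or raising it to 50 counts, omitting the fold limit, a replicate block, fitting the compared groups alone, TMM-scaled CPM and Spearman's rho.

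The replicate block was built from the labelled batches. By the labels, same-numbered libraries share a batch among P0 and lung samples and among P1 to P3. Across genes, their deviations from group means had correlations of 0.130 to 0.335 and 0.521 to 0.696. The methods describe replicates as independent cultures of different animals. Whether same-numbered libraries shared a culture is not given in the labels, and the main fit left them unpaired. With 2 libraries per group, p-values measure the spread between these samples. In all 7 replicated conditions the replicates differed beyond sampling noise (chi-square over its degrees of freedom 38.6 to 129.5). The procedure was tested on simulated data. The 6 genes and all lists were chosen with earlier results of these data known. Genes named are the 6, the list genes and the 3 most similar genes of each, of which 1 is not reported here.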

Additional observations from a re-analysis of the deposited data

How the results depend on the processing

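Of the recomputed log2 fold changes of the 6 genes, 1019 kept direction and call, 21 lost and 4 gained a call, and 9 changed sign. All 6 genes stayed called for P0 Emcn+ against BM MSC and over the 8 conditions under every alternative. With 1 library left out, the number of genes called ran from 5 to 6 for P0 Emcn+ against P0 Emcn- and against lung, 1 to 3 for lung against P0 Emcn-, 2 to 4 for BM MSC against P0 Emcn-, 0 to 1 for P1 against P0 Emcn- and for P3 against P1, and 1 to 2 for BM MSC against P1 to P3. Fitting the compared groups alone gave 1 for lung against P0 Emcn- (Stab2 lost, adjusted p = 0.184), 2 for BM MSC against P0 Emcn- (Stab2 at 0.106 and Stab1 at 0.138 lost) and 2 for P3 against P1 (Stab1 gained, 0.0440). The replicate block called 3 genes for BM MSC against P1 to P3 and changed no other call of the 6. It turned Dnase1l3 in BM MSC against P0 Emcn- to 0.10. Against P0 Emcn-, the values of Dnase1l3 with 1 library left out ran from -3.85 to 3.71 in lung, -1.06 to 6.23 in BM MSC and -1.82 to 5.47 at P1. The positive values came without replicate 1 of P0 Emcn-, which leaves a lone library with 0 counts, and the P0 Emcn+ value then became 13.4, which is no bound. Stab2 at P1 ran from -1.60 to 0.95, the latter without the same library. Stab1 ran from -1.06 (without lung replicate 2) to 1.45 in lung against P0 Emcn- and from -3.32 (without BM MSC replicate 2) to 1.18 in BM MSC against P1 to P3. Between P3 and P1, Dnase1l3 ran from -0.67 (without P3 replicate 1) to 0.56 and Lyve1 from -0.79 to 0.32 (without P3 replicate 2). None of the values of changed sign was called, and apart from the 0 counts of Dnase1l3 the cause was not tested. A lone library left in a group is assumed to vary like the other groups. Over all genes, counts of calls moved most in proportion to their size for P3 against P1. There they went from 43 to 170 without a filter, 106 with the replicate block and 153 with only the compared groups. They were 303 by DESeq2's Wald test and 149 with shrinkage, and they also moved with 1 library left out. With only the compared groups they went from 743 to 145 for lung against P0 Emcn-, from 3630 to 2396 for BM MSC and from 1715 to 968 for P1, each against P0 Emcn-. With 1 library left out they were down to 406 for lung and 805 for P1. Without the fold limit they were 6608, 7209, 9996, 6853, 3386 and 6206 for P0 Emcn+ against P0 Emcn-, lung and BM MSC, BM MSC against P0 Emcn-, P1 against P0 Emcn- and BM MSC against P1 to P3. Depth limits Dnase1l3 outside P0 Emcn+ cells, where many libraries hold few counts.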

Other observations

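Genes of the sinusoidal programme and of lymphatic ECs add to the picture of the P0 Emcn+ cells that carried the 6 genes. Of 11 sinusoid genes tested, 6 were called higher than in P0 Emcn- cells and 2 lower, where 7.79% of all genes were called higher and 11.4% lower. Plvap, a protein of the diaphragms of fenestrated ECs, was at 551 and 443 CPM against 8.31 and 1.11 CPM (log2 fold change 6.61). The sinusoidal and lymphatic receptor gene Gpr182 was at 32.0 and 61.9 CPM against 0.629 and 2.02 CPM (5.36). Cd300lg (7.71), Bmp2 (4.90), Tfec (4.46) and Oit3 (2.84) were also higher, and Wnt2 (-5.23) and Meis2 (-4.79) lower. Gata4, a regulator of liver sinusoids, had 1 count at most in the P0 libraries and was at 3.23 and 4.52 CPM in lung cells.

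Since Lyve1, Stab1 and Mrc1 also occur in lymphatic ECs, 7 lymphatic markers were examined. Mmrn1, which both lymphatic ECs and other ECs can store, was at 132 and 175 CPM in P0 Emcn+ against 1.41 and 0.807 CPM in P0 Emcn- cells (7.03). Prox1, the master regulator of lymphatic identity, was at 8.30 and 10.7 CPM against 1.16 and 0.706 CPM (3.32), and Itga9 was higher by 2.34. Pdpn, a lymphatic surface protein that stromal cells also carry, was at 2.69 and 5.06 CPM against 230 and 159 CPM (-5.62), and Foxc2 was at -1.63. The lymphatic markers thus lay on both sides, and a lymphatic share of the 6 genes was not tested.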
